A study of Rattus norvegicus with 15 samples.

Results

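The 10 genes described here encode the muscle nicotinic acetylcholine receptor and the proteins that hold it at the neuromuscular junction. They were chosen by symbol, and all 10 were found among the 37991 genes of the table and passed the filter on low counts, as 17201 genes did. They are the receptor subunits Chrna1, Chrnb1, Chrnd, Chrng and Chrne, the clustering genes Musk, Rapsn, Dok7 and Lrp4, and Ache, which encodes acetylcholinesterase.

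RNA was sequenced from the multifidus, a deep paraspinal muscle, of wild type male Sprague Dawley rats. Their age is given as 12 weeks, which the paper states for the rats as they were divided into groups. Control rats (n = 2 libraries) had no injury. Rats of the surgery group (n = 2) underwent a left hemilaminectomy at L5 and L6 with ligation and section of the left L5 spinal nerve, and received no injection, so no group received buffer alone. The pMT group (n = 4) had the same surgery and then, on day 14, injections of mitochondria isolated from human plasma (pMT). The dose was 25 µg in 100 µL of SHE buffer at each site and 50 µg per rat. Muscle was taken on day 28 in the control, surgery and pMT groups. The pMT/VitD group (n = 4) had surgery and received 25 µg of pMT with 150 µg of cholecalciferol at each site, 50 and 300 µg per rat. The VitD group (n = 3) had surgery and received 150 µg of cholecalciferol at each site, 300 µg per rat. The days of injection and collection in the VitD and pMT/VitD groups were not given in the sources used here. The question was how these injections changed the transcripts of muscle that surgery had injured and denervated.

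At the neuromuscular junction, the motor nerve releases acetylcholine onto a dense patch of receptors in the muscle membrane. Each receptor is a pentamer of alpha, beta and delta subunits with either the gamma subunit, used in fetal muscle, or the epsilon subunit, used at the adult junction. In innervated adult muscle, electrical activity keeps receptor genes quiet outside the synaptic nuclei, and loss of the nerve is known to bring alpha, delta and gamma transcripts back along the fibre. Nerve-derived agrin acts through LRP4 and the kinase MuSK, with DOK7 as the activator of MuSK, so that rapsyn gathers receptors under the nerve ending, where acetylcholinesterase ends the signal.

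Myogenic transcription factors bind the E-box, CANNTG, and ETS factors bind the N-box, CCGGAA, in genes of this kind. The 250 bases before the annotated start of Chrna1, Chrnd, Chrng and Chrne are shown because the first 3 carried the largest differences among the groups and Chrne, the adult counterpart of Chrng, was not called in any comparison. Sequences are from RefSeq on GRCr8, read 5′ to 3′ on the strand of the gene. Capitals mark CANNTG and CCGGAA, searched on both strands, so that CCGGAA on the other strand appears as TTCCGG. The reads themselves were aligned to another build, rn6.
Chrna1, chr3:78877354-78877603, minus strand: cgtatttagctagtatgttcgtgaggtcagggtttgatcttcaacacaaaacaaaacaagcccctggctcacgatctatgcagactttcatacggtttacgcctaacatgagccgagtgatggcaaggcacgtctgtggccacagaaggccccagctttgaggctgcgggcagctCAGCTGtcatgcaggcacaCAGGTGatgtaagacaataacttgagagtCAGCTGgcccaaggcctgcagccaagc
Chrnd, chr9:95310066-95310315, plus strand: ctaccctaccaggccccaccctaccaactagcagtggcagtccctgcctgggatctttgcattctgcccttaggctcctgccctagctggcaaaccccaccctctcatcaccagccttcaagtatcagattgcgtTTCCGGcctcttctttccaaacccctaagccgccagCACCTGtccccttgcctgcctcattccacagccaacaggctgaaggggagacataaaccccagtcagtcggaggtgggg
Chrng, chr9:95325734-95325983, plus strand: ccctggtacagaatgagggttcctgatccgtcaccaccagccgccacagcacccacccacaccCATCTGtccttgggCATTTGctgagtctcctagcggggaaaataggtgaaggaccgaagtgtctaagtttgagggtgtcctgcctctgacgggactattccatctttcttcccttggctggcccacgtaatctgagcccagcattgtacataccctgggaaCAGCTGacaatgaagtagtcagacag
Chrne, chr10:55834155-55834404, minus strand: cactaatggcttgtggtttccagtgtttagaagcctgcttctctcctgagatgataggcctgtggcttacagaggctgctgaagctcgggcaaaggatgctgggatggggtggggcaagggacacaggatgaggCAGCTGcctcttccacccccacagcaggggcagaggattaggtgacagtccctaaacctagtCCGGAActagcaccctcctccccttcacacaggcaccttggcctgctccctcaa

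Promoter entries were found for 8 of the 10 genes and not for Rapsn and Lrp4. At least 1 CANNTG was present in 8 of these 8, as in 65.5% of all 33469 promoters of this length. The form CAGCTG was present in 5 of 8, namely Chrna1, Chrnb1, Chrng, Chrne and Musk, against 12.0% of all promoters. In Chrna1 it lay 75 to 70 and again 27 to 22 bases before the start, and in Chrng 26 to 21 bases before it. Chrna1, Chrnb1, Chrng and Musk held 3 CANNTG matches each, a number reached by 11.5% of promoters. CCGGAA was present in Chrnd and Chrne, 115 to 110 and 54 to 49 bases before the start, against 12.6% of promoters. No base was shared by both motifs. A match describes letters in this window and not a bound site. Chrnd and Chrng are neighbours on chromosome 9 with 0 annotated genes between them.

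Library totals ranged from 52342134 to 73557878 counts, and TMM scaling factors from 0.849 to 1.198. The labels do not say that libraries came from separate animals, so p-values measure the spread between these libraries. Markers of muscle fibre such as Acta1 and Ckm were abundant in every library, with a summed level of 106200 to 145300 TPM over 10 genes. The pMT library of replicate 4 and the pMT/VitD library of replicate 4 stood apart from their groups. The first had a TMM factor of 0.857 where the other pMT libraries had 1.04 to 1.09, and the second had 0.982 where the other pMT/VitD libraries had 0.849 to 0.867. In some values each resembled the other group. The summed level of 8 macrophage markers was 153 TPM in pMT replicate 4 and 147 to 166.5 in pMT/VitD replicates 1 to 3. It was 257.8 TPM in pMT/VitD replicate 4 and 256.8 to 294.7 in pMT replicates 1 to 3. The muscle fibre sum of pMT replicate 4, 106200 TPM, was below that of every other library. The reason was not tested. The counts of called genes in the comparisons of these groups, and in the test over all 5 groups, are given with and without both libraries.

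Over all 15 libraries and per unit of length, the genes spanned a wide range of abundance. Ache was highest with a mean of 36.1 TPM, followed by Chrnb1 with 19.8 and Rapsn with 12.4. Chrna1, Chrnd and Chrne followed with 6.83, 5.59 and 4.41 TPM. Dok7 and Lrp4 had 2.55 and 1.30, and Chrng and Musk were lowest with 0.674 and 0.526. The ranges of neighbours in this order overlapped, and the rank of Chrna1, Chrnd and Chrng depended on the group.

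In a test for any difference among the 5 groups, 3 of the 10 genes passed, beside 11.8% of all genes tested. They were Chrna1 (adjusted p = 7e-04, edgeR quasi-likelihood F-test with Benjamini-Hochberg adjustment over all genes), Chrng (adjusted p = 0.00212) and Chrnd (adjusted p = 0.00438). The alpha, delta and gamma transcripts were high after surgery alone and after surgery with vitamin D, and low in control muscle and in both groups given pMT. The beta and epsilon subunits and the genes of the clustering machinery did not pass, with adjusted p-values of 0.0727 for Musk, 0.13 for Chrnb1, 0.198 for Rapsn, 0.637 for Chrne, 0.82 for Lrp4, 0.863 for Dok7 and 0.889 for Ache. In this test, leaving out any library left 3 or 4 genes called. Without pMT replicate 4 and pMT/VitD replicate 4, 4 genes were called, with Musk beside the same 3, and 29.8% of all genes were.

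Chrna1 encodes the alpha subunit, which forms the main part of the acetylcholine binding site. Its level was 4.86 and 5.23 CPM (counts scaled to TMM library size) in control and 13.8 and 14.5 after surgery. Muscle given pMT had 4.99, 4.77, 4.49 and 6.75 CPM, and muscle given pMT/VitD had 6.94, 7.17, 4.99 and 5.12. With VitD it was 24.45, 14.5 and 10.9 CPM, replicate 1 being the highest of all 15 libraries. Every surgery and VitD library lay above every control, pMT and pMT/VitD library, while the ranges of the last 3 groups overlapped. Here and below, separation of ranges only describes these few libraries, and the share of all genes that separated in this way is not given.

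Chrnd encodes the delta subunit. Its level was 3.74 and 3.10 CPM in control, 12.0 and 11.6 after surgery, and 19.8, 10.7 and 6.82 with VitD. It was 2.41, 3.38, 2.96 and 5.62 CPM with pMT, and 4.78, 5.64, 4.64 and 2.86 with pMT/VitD. The groups divided as they did for Chrna1, although the lowest VitD library was close to the highest pMT/VitD library.

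Chrng encodes the fetal gamma subunit and was nearly absent from control muscle, with 9 and 6 counts per library. It had 159 and 98 counts after surgery and 330, 98 and 64 with VitD. It had 11, 32, 20 and 30 counts with pMT and 25, 24, 15 and 10 with pMT/VitD. In CPM the group means were 0.121 ± 0.0297 (SD, n = 2) in control, 1.70 ± 0.508 (n = 2) after surgery, 2.04 ± 1.60 (n = 3) with VitD, 0.356 ± 0.161 (n = 4) with pMT and 0.376 ± 0.150 (n = 4) with pMT/VitD. The pMT and pMT/VitD libraries all lay above control and below surgery.

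**Figure D1:**
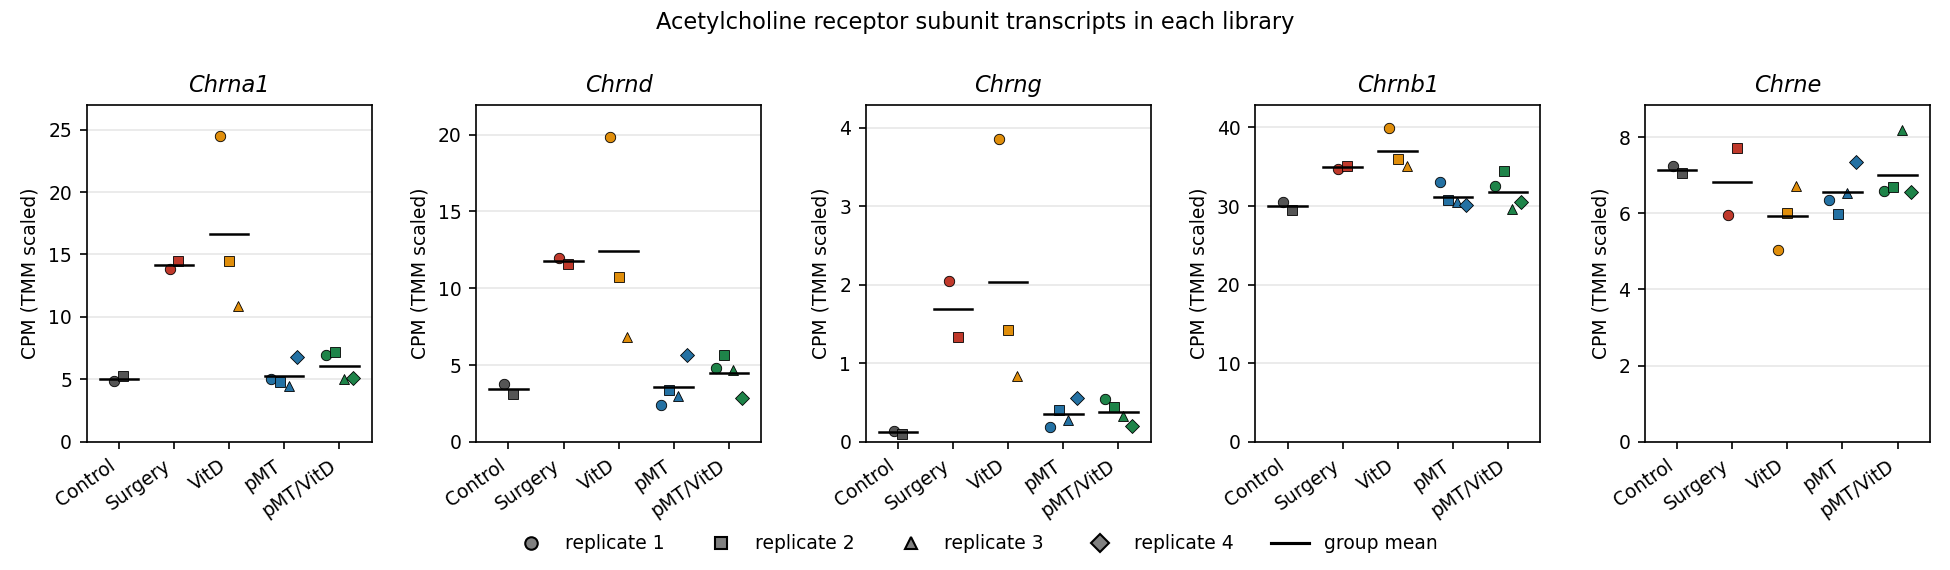
Level of each acetylcholine receptor subunit in CPM (y axis, TMM scaled, linear from 0) by group (x axis), with 1 marker per library and a bar at the group mean. The surgery and VitD libraries lie above the other 3 groups for Chrna1, Chrnd and Chrng, and VitD replicate 1 is the highest for each of them (24.45, 19.8 and 3.86 CPM), while Chrne overlaps between surgery and control.

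The other subunits moved little. Chrnb1, the beta subunit, had 30.4 and 29.5 CPM in control, 34.8 and 35.1 after surgery, and 39.9, 36.0 and 35.1 with VitD. It had 30.1 to 33.1 CPM with pMT and 29.6 to 34.4 with pMT/VitD, below the surgery and VitD libraries. Chrne, the adult epsilon subunit, had 7.24 and 7.05 CPM in control and 5.96 and 7.71 after surgery. With pMT, pMT/VitD and VitD it ranged from 5.97 to 7.34, 6.56 to 8.19 and 5.04 to 6.71 CPM. Its ranges in surgery, pMT and pMT/VitD overlapped with each other.

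The comparison of surgery with control asked what injury and denervation did to these genes. Chrng rose by 3.78 ± 0.747 (SE) on the log2 scale (adjusted p = 0.0268) and Chrna1 by 1.49 ± 0.31 (adjusted p = 0.033). These were 2 of the 10 genes, beside 1.55% of all genes tested called in either direction and 1.25% called higher. Chrnd differed by 1.79 ± 0.448 (adjusted p = 0.0601, and passing under 5 of 13 alternatives) and Musk by 1.18 ± 0.379 (adjusted p = 0.126), which did not pass. The difference was 0.22 for Chrnb1 (adjusted p = 0.318) and -0.07 for Chrne, with a 95% interval of -0.438 to 0.307 for Chrne. Neither call survived the loss of any of the 4 libraries, with adjusted p of 0.175 to 0.251 for Chrna1 and 0.0945 to 0.257 for Chrng, although both stayed positive.

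The VitD group compared with control shared the control libraries with that of surgery. Chrng was higher by 4.05 (adjusted p = 0.00696), Chrnd by 1.87 (adjusted p = 0.0188) and Chrna1 by 1.72 (adjusted p = 0.00581). These were 3 of 10 genes, beside 8.67% of all genes called in either direction and 5.48% called higher. Musk differed by 1.02 (adjusted p = 0.0867) and Chrnb1 by 0.30 (adjusted p = 0.0712). With only these groups in the fit 0 were called, at adjusted p of 0.072 to 0.0864. Leaving out either control library left 0 genes called, with adjusted p of 0.0779 to 0.159 for Chrna1, Chrnd and Chrng. Without VitD replicate 1, Chrnd was higher by 1.36 and no longer passed (adjusted p = 0.0601).

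Compared with surgery, pMT muscle had less of the gamma, delta and alpha subunit transcripts. Chrng fell by 2.25 ± 0.525 (SE) on the log2 scale (adjusted p = 0.0431), Chrnd by 1.72 ± 0.362 (adjusted p = 0.0272) and Chrna1 by 1.43 ± 0.253 (adjusted p = 0.0122). These were 3 of 10 genes, beside 1.94% of all genes tested called in either direction and 1.55% called lower. Musk differed by -0.84 (adjusted p = 0.214), Chrnb1 by -0.17 (adjusted p = 0.454) and Chrne by -0.06 (95% interval -0.383 to 0.261). The study's rule was a fold change of at least 2 with p under 0.05 in edgeR's exactTest, and its methods do not make clear whether that p was adjusted. With the unadjusted p on these groups alone, 3 of 10 genes were DEGs, beside 4.04% of all genes tested called in either direction and 2.96% called lower. They were Chrna1 (-1.44), Chrnd (-1.73) and Chrng (-2.26), and the adjusted p gave the same 3 genes. Without pMT replicate 4 and pMT/VitD replicate 4, the quasi-likelihood differences were -1.59, -2.02 and -2.53 for Chrna1, Chrnd and Chrng, and all 3 passed, beside 3.15% of all genes. Without either surgery library none passed, with adjusted p of 0.134 to 0.153 for Chrna1, 0.207 to 0.263 for Chrnd and 0.178 to 0.418 for Chrng. Chrna1 alone passed without pMT replicate 1, 2 or 3.

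The pMT/VitD group compared with the same surgery libraries gave lower Chrng by 2.17 (adjusted p = 0.0267), Chrnd by 1.40 (adjusted p = 0.0344) and Chrna1 by 1.22 (adjusted p = 0.0131), 3 of 10 genes beside 7.44% of all genes called in either direction and 5.03% called lower. With every gene that had a count kept, Chrnd was at an adjusted p of 0.0502. Musk differed by -0.95 (adjusted p = 0.0817). Without pMT replicate 4 and pMT/VitD replicate 4, Musk also passed, at -1.05 (adjusted p = 0.0348), beside 20.1% of all genes. Without surgery replicate 1 or replicate 2, none passed, with adjusted p of 0.107 to 0.239 over the 3 subunits. Chrna1 alone passed without pMT/VitD replicate 2 or 3.

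Compared with VitD, the pMT/VitD group differed in more genes. The groups compared here were neither control nor surgery, but those libraries still entered the shared fit, its scaling and its estimate of the spread. Chrng fell by 2.44 (adjusted p = 0.00396), Chrnd by 1.48 (adjusted p = 0.00699) and Chrna1 by 1.46 (adjusted p = 0.00109). Rapsn rose by 0.30 (adjusted p = 0.0401), giving 4 of 10 genes beside 21.9% of all genes called in either direction. Of all genes, 12.2% were called lower and 9.66% higher. Musk differed by -0.79 (adjusted p = 0.061) and Chrnb1 by -0.22 (adjusted p = 0.0693). Chrna1 and Chrng passed with each of the 7 libraries left out in turn. Without VitD replicate 1, Chrnd fell short (-0.97, adjusted p = 0.0566) and so did Rapsn (0.24, adjusted p = 0.15). Without pMT replicate 4 and pMT/VitD replicate 4, 5 genes passed, with Musk at -0.89 (adjusted p = 0.0346) beside the other 4, and 32% of all genes were called. The Rapsn call was lost in 8 of 17 alternatives. With library size in place of TMM scaling, Rapsn was at -0.04 (adjusted p = 0.844), while the median of all genes moved to -0.34.

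Other comparisons gave 0 of 10 genes by the quasi-likelihood test, beside 0% of all genes in each. VitD against surgery had 0 of the 10 and 139 of all 17201 genes at an unadjusted p under 0.05, with 0 of the 10 called by DESeq2 or by limma voom with sample quality weights. Chrna1 was 0.23 higher with VitD (95% interval -0.356 to 0.819), and -0.16 without VitD replicate 1. The pMT/VitD and pMT groups had 0 of the 10 and 1737 of all genes at an unadjusted p under 0.05. There Chrna1 differed by 0.21 (95% interval -0.26 to 0.677), with 0 of the 10 called by DESeq2 and 4 called by limma voom with sample quality weights (Chrna1, Chrnd, Lrp4 and Ache), which called 6595 of all genes. Without pMT replicate 4 and pMT/VitD replicate 4, Chrna1 differed there by 0.43 (adjusted p = 0.244), and 0 of the 10 but 3136 of all genes (18.3%) were called. Against control, Chrng alone of the 10 had an unadjusted p under 0.05, at 1.53 for pMT (adjusted p = 1) and 1.61 for pMT/VitD (adjusted p = 0.906), beside 528 and 496 of all genes. DESeq2 and limma voom called 0 of the 10 in both. Without the 2 libraries that stood apart, 0 of the 10 were called in both, beside 4 and 11 of all genes. The difference between the pMT effect with and without vitamin D was not called for any of the 10, and 0 of the 10 and 888 of all genes had an unadjusted p under 0.05. For Chrna1 it was -0.02 (95% interval -0.774 to 0.728). Without the 2 libraries that stood apart, 0 of the 10 and 325 of all genes (1.89%) were called.

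**Figure D2:**
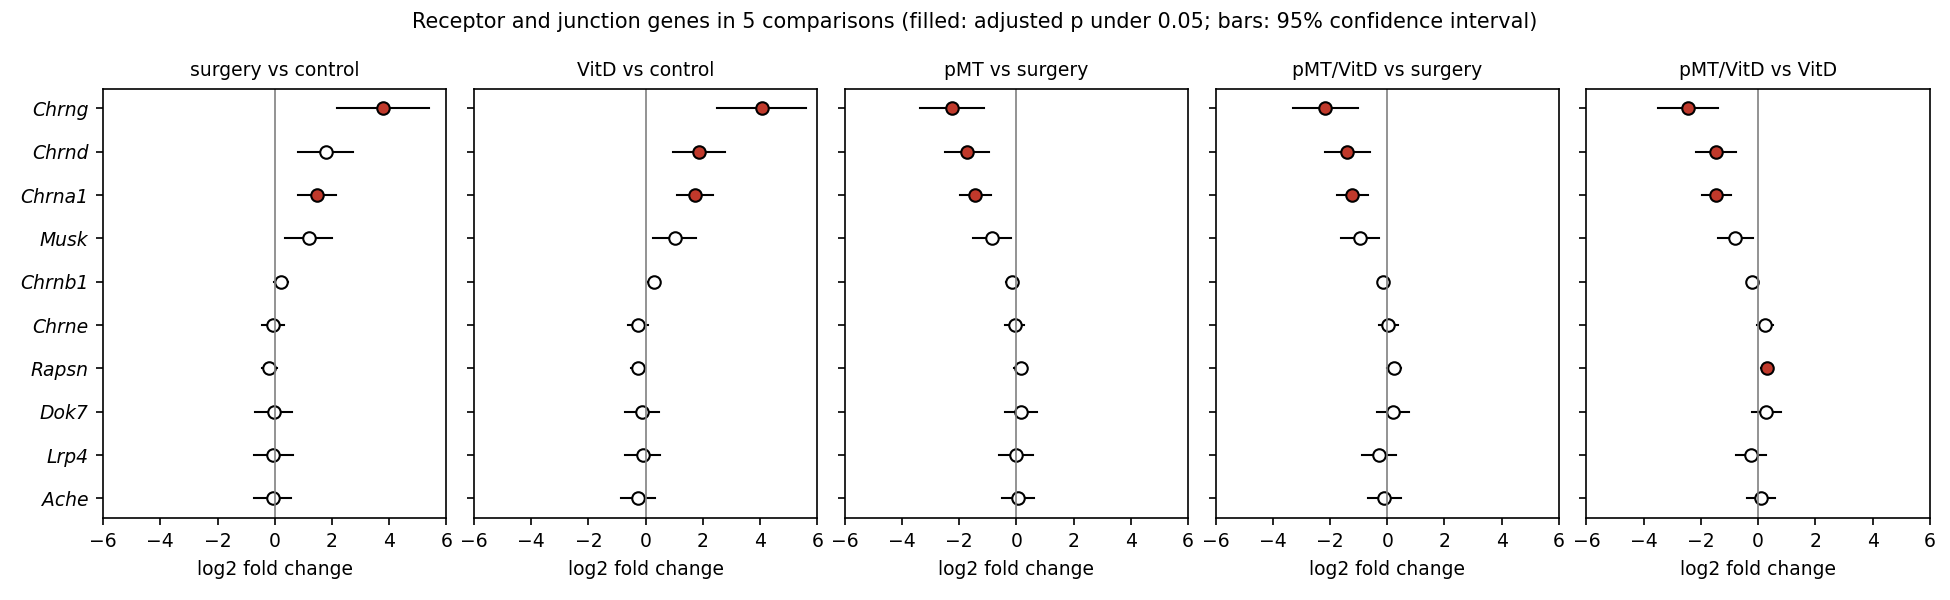
Log2 fold change of each of the 10 genes (x axis) in 5 comparisons from the quasi-likelihood fit, with bars for the 95% confidence interval and filled circles for an adjusted p under 0.05. Chrng, Chrnd and Chrna1 lie to the right of 0 in surgery and VitD against control and to the left in the 3 comparisons of groups given pMT. Chrng has the largest difference in each panel, up to 4.05 in VitD against control.

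The gamma and epsilon subunits take the same place in the receptor, so the share of Chrng in the sum of Chrng and Chrne was computed per library from TPM. It was 2.32% and 1.25% in control, 28.3% and 15.8% after surgery, and 46.6%, 21.4% and 11.8% with VitD. It was 2.90%, 6.25%, 4.93% and 7.35% with pMT and 9.28%, 6.96%, 3.70% and 3.001% with pMT/VitD. The lowest surgery or VitD library, at 11.8%, lay above the highest pMT or pMT/VitD library, and the lowest of those above both control libraries. Group means were 1.78% ± 0.759 (SD, n = 2) in control, 22.0% ± 8.85 (n = 2) after surgery, 26.6% ± 18.0 (n = 3) with VitD, 5.36% ± 1.92 (n = 4) with pMT and 5.74% ± 2.93 (n = 4) with pMT/VitD. The pMT/VitD and pMT means differed by 0.38 percentage points (two-sided exact permutation test over 70 arrangements, p = 0.829). Comparisons with a group of 2 cannot reach a p of 0.05 in such a test and were not tested. Those of VitD with the groups given pMT could reach it but were not tested either. From counts, control replicate 2 had 6 Chrng counts of 429 for both subunits, a share of 1.40% with an exact Clopper-Pearson interval of 0.515% to 3.02%. VitD replicate 1 had 330 of 761, a share of 43.4% with an interval of 39.8% to 47.0%. Intervals of some libraries next to each other in this order overlapped. Control replicate 1 had 0.883% to 3.62% and pMT replicate 1 had 1.42% to 5.02%. VitD replicate 3 had 8.6% to 13.9% and pMT/VitD replicate 1 had 4.96% to 11%. These intervals cover counting error only.

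**Figure D3:**
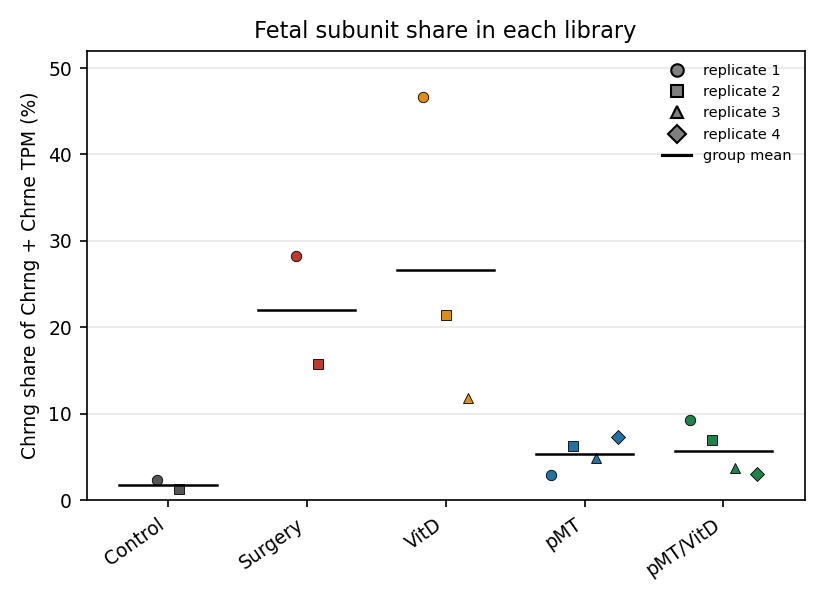
Share of the fetal subunit Chrng in the TPM of Chrng plus Chrne (y axis, percent) by group (x axis), with 1 marker per library and a bar at the group mean. Control libraries lie at 1.25% and 2.32%, both groups given pMT between 2.90% and 9.28%, and the surgery and VitD libraries between 11.8% and 46.6%.

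Musk, the receptor tyrosine kinase that starts clustering, had the sign of Chrna1 in the 5 comparisons with calls and passed in none of them in the main fit. It passed under 2 of 13 alternatives in surgery against control and 3 of 14 in VitD against control. Against surgery it passed under 1 of 16 with pMT and 4 of 16 with pMT/VitD, and under 4 of 17 in pMT/VitD against VitD. It had 0.663 and 0.766 CPM in control, 1.69 and 1.56 after surgery, and 1.29, 1.60 and 1.47 with VitD. It had 0.708, 0.819, 1.45 and 0.629 CPM with pMT and 0.972, 0.890, 0.494 and 0.993 with pMT/VitD. The pMT library of replicate 3 lay within the range of the VitD libraries, and the other pMT libraries below it. At 23 to 131 counts per library, Musk was measured on few reads.

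Rapsn, the scaffold under the receptor, had 19.9 and 17.8 CPM in control, 16.3 and 16.7 after surgery, and 14.5, 16.2 and 16.6 with VitD. It had 19.6, 19.8, 16.1 and 17.7 CPM with pMT and 18.3, 18.6, 21.0 and 19.95 with pMT/VitD. All pMT/VitD libraries lay above all VitD libraries, a separation for which the share of all genes is not given. The library of pMT replicate 3 lay below both surgery libraries.

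Dok7, Lrp4 and Ache varied more among libraries given pMT than between groups. Dok7 ranged from 7.16 to 16.7 CPM with pMT and from 9.53 to 17.2 with pMT/VitD, and from 9.24 to 11.5 over the other 7 libraries. Lrp4, the agrin receptor, had 8.16 and 8.15 CPM in control, 7.65 and 8.06 after surgery and 7.27 to 8.02 with VitD, and ranged from 5.07 to 11.8 with pMT and from 4.99 to 8.43 with pMT/VitD. Ache, which breaks down acetylcholine, had 63.8 and 52.5 CPM in control, 55.2 and 55.3 after surgery and 36.9 to 57.4 with VitD, and ranged from 40.1 to 70.1 with pMT and from 37.9 to 72.1 with pMT/VitD. For each of these genes pMT replicate 4 was the lowest pMT library and pMT/VitD replicate 4 the highest pMT/VitD library. Over the genes tested, deviations from the group mean rose with gene length in pMT replicate 3 (Spearman's rho 0.431) and pMT/VitD replicate 4 (0.356). They fell with length in pMT replicate 4 (-0.403). Dok7 and Lrp4 were at the 90.4 and 95.9 percentiles of length, taken from counts over TPM, and Ache at 39.6. The part of length in this spread was not tested. Across the 15 libraries, which share groups and scaling, Pearson's r on log2 CPM was 0.67 between Dok7 and Lrp4, 0.694 between Dok7 and Ache and 0.69 between Lrp4 and Ache. It was 0.965 between Chrna1 and Chrnd, 0.935 between Chrna1 and Chrng, 0.907 between Chrna1 and Chrnb1 and -0.791 between Chrna1 and Rapsn.

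**Figure D4:**
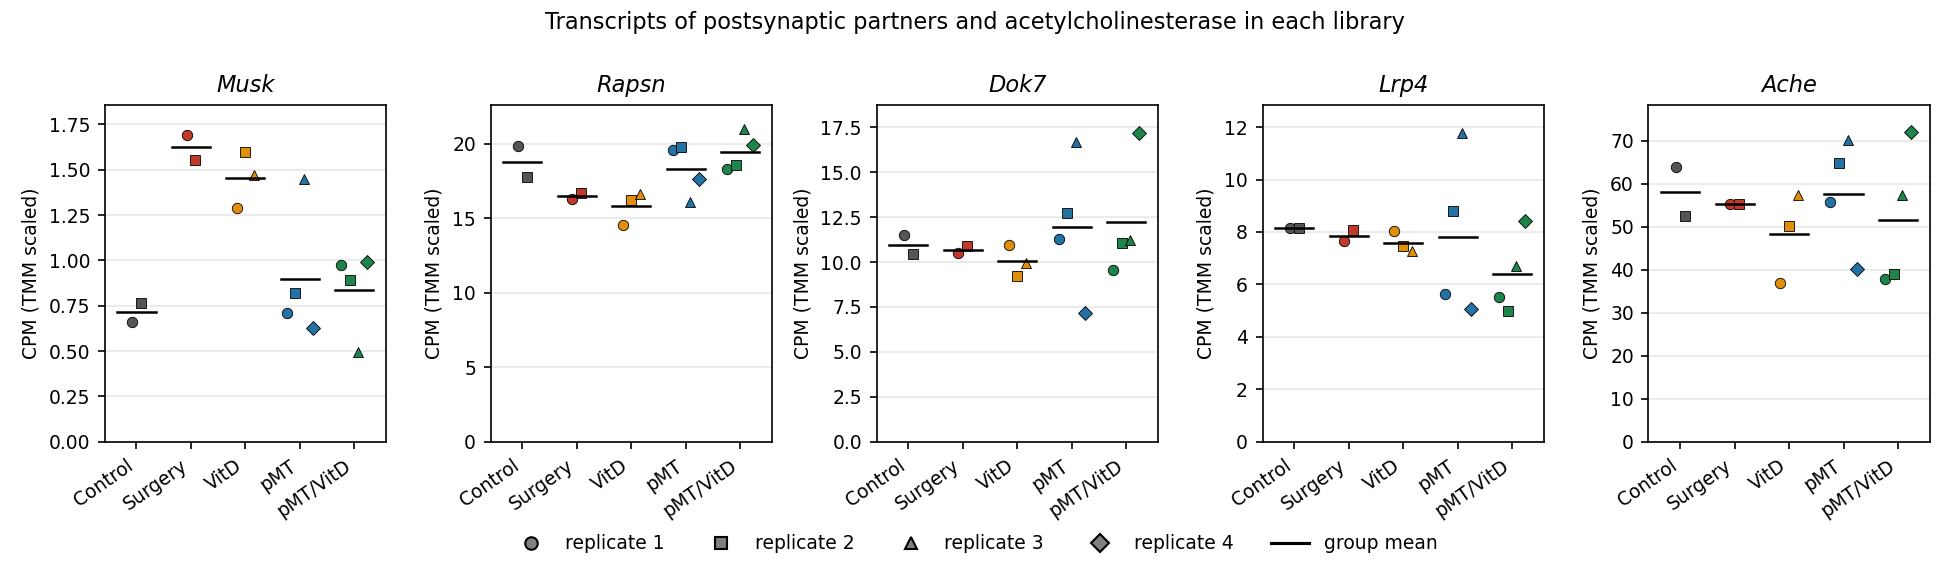
Level of Musk, Rapsn, Dok7, Lrp4 and Ache in CPM (y axis, TMM scaled, linear from 0) by group (x axis), with 1 marker per library and a bar at the group mean. Rapsn is above 18 CPM in every pMT/VitD library and below 17 in every VitD library, and pMT replicate 4 is the lowest pMT library for Dok7, Lrp4 and Ache (7.16, 5.07 and 40.1 CPM).

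Other genes of the junction were read from a list of 37 partners, of which 36 were tested. After surgery 2 rose, Erbb2, a neuregulin receptor subunit (1.36 ± 0.286, adjusted p = 0.0339), and Ncam1, a cell adhesion molecule that spreads over denervated fibres (1.09 ± 0.248, adjusted p = 0.0454). Erbb2 had 1.58 and 1.08 CPM in control and 3.33 and 3.49 after surgery. Both fell with pMT against surgery, Erbb2 by 1.12 (adjusted p = 0.0266) and Ncam1 by 0.87 (adjusted p = 0.0457). The other 34 were not called in either comparison, among them Agrn and Colq, which encodes the tail that anchors acetylcholinesterase. Among all genes tested, 1.55% were called in surgery against control and 1.94% in pMT against surgery. The list's median log2 difference was 0.15 in surgery against control, where that of all genes was -0.01, and -0.03 in pMT against surgery, where that of all genes was 0.02. In pMT/VitD against surgery 2 of the 36 rose and 4 fell, beside 7.44% of all genes called in either direction and 5.03% called lower.

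Of 14 regulators of receptor transcription, 13 were tested and 1 was called in each of these comparisons. The share of all genes called was 1.55% in surgery against control, 1.94% in pMT against surgery and 7.44% in pMT/VitD against surgery. Myog, which encodes the E-box factor myogenin, had 20.5 and 18.4 CPM in control, 48.7 and 46.6 after surgery, 59.1, 47.2 and 44.8 with VitD, 19.4 to 28.6 with pMT and 18.3 to 27.6 with pMT/VitD. It rose by 1.29 ± 0.2 in surgery against control (adjusted p = 0.00817), fell by 1.01 ± 0.165 in pMT against surgery (adjusted p = 0.00744) and fell by 1.09 ± 0.165 in pMT/VitD against surgery (adjusted p = 0.00246). Myod1, a related factor, had -0.01 and 0.09 in the first comparisons (adjusted p = 0.979 and 0.86). Of the 11 neuronal nicotinic subunits, 0 passed the filter and 5 were at 0 in every library, with a summed level of at most 0.099 TPM.

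The genes whose log2 CPM was most like that of Chrna1 over the 15 libraries, among 11391 genes whose mean log2 CPM was 1 or more, were Sfrp4 (Pearson's r = 0.991), Cdkn1a (0.985), Klk1 (0.985), Tnnt2 (0.983) and Actc1 (0.98). Tnnt2 and Actc1 encode the cardiac forms of troponin T and alpha actin, which developing skeletal muscle also uses. Actc1 had a mean of 18.1 ± 1.18 CPM (SD, n = 2) in control and 182 ± 5.21 (n = 2) after surgery, and 22.6 ± 4.07 (n = 4) with pMT. The genes most like Chrng were Thbs4 (0.962), Tnnt2 (0.958) and Cyba (0.956), and those most like Chrne were MGC116121 (0.85), Mettl17 (0.815) and Pxdc1 (0.811). These values describe libraries that share their groups.

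Levels of macrophage and fibroblast markers also differed between the groups. The counts of markers below stand beside 1.55% of all genes called in surgery against control, 1.94% in pMT against surgery and 7.44% in pMT/VitD against surgery. Of 8 macrophage markers, 2 rose in surgery against control, 4 fell in pMT against surgery and 8 fell in pMT/VitD against surgery. Their summed level was 205.5 to 217.4 TPM in control, 534.9 to 537.7 after surgery, 433.2 to 782.5 with VitD, 153 to 294.7 with pMT and 147 to 257.8 with pMT/VitD. Of 7 fibroblast markers, 0 were called in surgery against control by this test, with 5 at an unadjusted p under 0.05, and 2 fell in pMT against surgery and 4 in pMT/VitD against surgery. Their sum was 1076 to 1129 TPM in control, 1999 to 2036 after surgery, 1783 to 3100 with VitD, 902 to 1530 with pMT and 740.5 to 1260 with pMT/VitD. Of 9 Schwann cell markers, 0 were called in surgery against control or pMT against surgery, with 3 and 1 at an unadjusted p under 0.05, and 1 fell in pMT/VitD against surgery, with sums of 93.1 to 93.4 TPM in control, 130.9 to 131.2 after surgery, 125.6 to 138.4 with VitD, 69.8 to 125 with pMT and 68.6 to 108 with pMT/VitD. Of 7 satellite cell markers, 1 rose in surgery against control (Megf10) and it fell in pMT/VitD against surgery, while the sum was 35.8 to 37.6 TPM in control, 44.9 to 45.1 after surgery, 43.3 to 47.8 with VitD, 39.2 to 48.3 with pMT and 30.8 to 45.0 with pMT/VitD. In pMT/VitD against VitD, 12.2% of all genes were called lower and 9.66% higher. There 8 of 8 macrophage and 6 of 7 fibroblast markers fell. So did 2 of 9 Schwann cell and 2 of 7 satellite cell markers, which is nearer the share of all genes. Of 6 erythroid markers tested, 0 were called in surgery against control or pMT against surgery, with 0 and 3 at an unadjusted p under 0.05, while 1 rose in pMT/VitD against surgery (Alas2) and 4 rose in pMT/VitD against VitD. Their sum was 890.7 to 925.8 TPM in control, 741.1 to 748.5 after surgery, 581 to 1151 with VitD, 1015 to 1368 with pMT and 650.2 to 1653 with pMT/VitD. Of 10 muscle fibre markers, 0 were called in surgery against control or pMT against surgery, with 1 and 0 at an unadjusted p under 0.05, while 1 rose in pMT/VitD against surgery (Des) and 4 rose in pMT/VitD against VitD. These marker counts use all 15 libraries. No marker of these lists was at 0 in every library. The part of these cells in the receptor results was not tested. In bulk tissue, fewer cells of a type and less RNA per cell cannot be told apart.

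**Figure D5:**
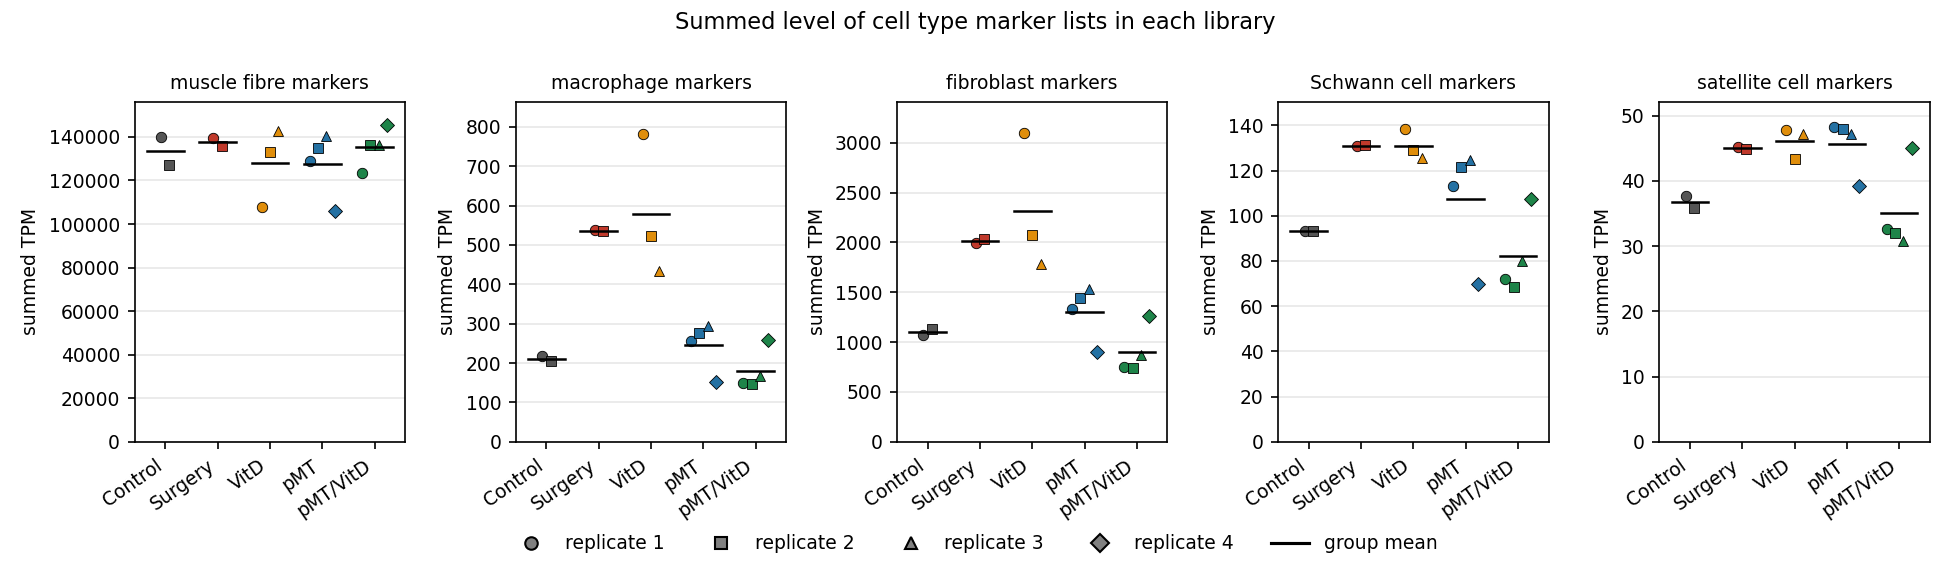
Summed TPM of 5 lists of cell type markers (y axis, linear from 0) by group (x axis), with 1 marker per library and a bar at the group mean. The macrophage sum is 534.9 to 537.7 TPM after surgery and at most 294.7 in the groups given pMT, and VitD replicate 1 has the highest macrophage and fibroblast sums (782.5 and 3100 TPM).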

How the data were processed

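Gene-level values of 15 paired-end RNA sequencing libraries of rat multifidus were used, grouped by the sample labels. Per the labels and the study's methods, reads were trimmed by the authors (Trimmomatic 0.38), aligned to rn6 (HISAT2 2.1.0), handled with SAMtools 1.9 and quantified per gene by StringTie 2.1.3b on NCBI RefSeq annotation. Handling of strand and multi-mapping reads is not given in the sources used here. The authors deposited read counts per gene without normalization. TPM values, per length and scaled to an equal total, were deposited too. The deposited FPKM values were not used here.

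Counts were fitted with edgeR 4.0.16 (R 4.3.3): TMM scaling, filterByExpr, robust glmQLFit and glmQLFTest on all 15 libraries, which share 1 estimate of the spread. Genes were called at a Benjamini-Hochberg adjusted p under 0.05 over the 17201 tested. Fold changes are log2 with SE, and intervals are 95%. The study's DEG rule was applied with exactTest on the surgery and pMT libraries. Its methods do not make clear whether p was adjusted, and the unadjusted p was used here, with the adjusted p as an alternative. TPM served for levels between genes, the Chrng share and marker sums. Correlations used log2 CPM with a prior count of 2. The 10 genes, the lists and the alternatives were chosen with earlier results of these data known. Named genes were the 10, at most 4 called or abundant genes per list, and the genes most like Chrna1, Chrng and Chrne. Alternatives were RLE or library size scaling, other filters, DESeq2 1.42.0, limma 3.58.1 (voom with sample quality weights, or a length trend removed), only the groups compared, a replicate block, and leaving out libraries. Tested on simulated counts for pMT against surgery over 16898 genes, the quasi-likelihood test recovered 42% of genes changed 2-fold and 77% of those changed 4-fold, with 4 false calls. The simulation held no libraries that stood apart and no trend with gene length. Its false calls therefore do not measure those in the real libraries. Replicates of a group differed by more than sampling noise. The chi-square per degree of freedom was 4.88 between the surgery libraries, the pair most alike, and 23.85 to 493.1 in the other pairs.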

Additional observations from a re-analysis of the deposited data

Results flagged for a closer look

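Chrne, the adult epsilon subunit, had 8.19 CPM in pMT/VitD replicate 3, against 6.56 to 6.69 in the other 3 libraries of that group. The gap was 0.919 of the group's range, above Dixon's 95% critical value of 0.829 for 4 samples. Among 22 sets of 4 libraries examined, 1 was set apart in this way, and chance gives about 1.1.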

How the results depend on the processing

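Chrna1, Chrnd and Chrng kept their direction under every alternative in the 5 comparisons with calls (surgery and VitD against control, pMT and pMT/VitD against surgery, pMT/VitD against VitD), but their calls depended on the number of libraries and the model. With 1 library left out in turn, the number of the 10 genes called was 0 to 0 in surgery against control, 0 to 3 in pMT against surgery, 0 to 3 in pMT/VitD against surgery, 2 to 4 in pMT/VitD against VitD and 0 to 3 in VitD against control. It was 0 to 0 in the other pairs and in the difference of pMT effects, 3 to 4 among the 5 groups and 3 to 4 by the DEG rule. The share of all genes called in each of these fits is not given here. The share of Chrng, with 1 library left out in turn, ranged from 1.25% to 2.32% in control and 15.8% to 28.3% after surgery. It ranged from 4.69% to 6.18% with pMT, 4.55% to 6.65% with pMT/VitD and 16.6% to 34.0% with VitD. Limma voom with sample quality weights called 5 in surgery against control, 6 in pMT against surgery, 6 in pMT/VitD against surgery, 4 in pMT/VitD against pMT, 7 in pMT/VitD against VitD and 6 in VitD against control. It called 4902, 6457, 6777, 6595, 8382 and 6434 of all genes there, against 266, 334, 1279, 0, 3766 and 1492. DESeq2 called 5 in VitD against control, and 14.4% of all genes. With only the groups compared in the fit, 5 were called in surgery against control and 0 in VitD against control, with 5289 (32.4%) and 96 of all genes. Library size scaling called 5 in pMT/VitD against surgery, 5 in VitD against control and 5 among the 5 groups, with 18.9%, 16.2% and 20.8% of all genes (7.44%, 8.67% and 11.8% with TMM), and moved the median of all genes to 0.25 in surgery against control, -0.12 in pMT against surgery, -0.32 in pMT/VitD against surgery, -0.34 in pMT/VitD against VitD and 0.27 in VitD against control. It turned Rapsn in pMT/VitD against VitD to -0.038 and Chrne in surgery against control to 0.20. With 1 library left out in turn, Chrne ranged from -0.26 to 0.11 in surgery against control and from -0.24 to 0.14 in pMT against surgery, turning positive without surgery replicate 1 and replicate 2, respectively. Chrna1 in VitD against surgery ranged from -0.16, without VitD replicate 1, to 0.46. At least 10 counts in every library removed Chrng and left 1 called in surgery against control, beside 2.24% of all genes. Except where fewer genes or libraries enter by construction, the cause was not tested. For libraries of the same replicate number in different groups, deviations from the group mean correlated at -0.499 to 0.169 (24 pairs, 2 above 0.1). The lowest value was that of pMT replicate 4 and pMT/VitD replicate 4, which deviated in opposite directions. In groups of 2 the deviations mirror each other, so the pairs are not independent. The replicate number was not used in the main fit. With a replicate block, 0 were called in pMT against surgery and 1 in pMT/VitD against surgery (Chrna1). Of all genes, 0.453% and 2.03% were called there, against 1.94% and 7.44% in the main fit. The count of the 10 in the other comparisons stayed within 1.5 times.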
